A study of Mus musculus with 14 samples.

Results

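The genes described here are 9 genes of the synthesis, lengthening and desaturation of fatty acids, *Fasn*, *Acaca*, *Acly*, *Acss2*, *Scd1*, *Scd2*, *Elovl6*, *Me1* and *Thrsp*, with the transcription factor gene *Srebf1*. They were chosen by gene symbol for their place in the pathway, with earlier results of these data known. All 10 were found among the 17232 genes that both deposited tables hold (18233 genes in either). RNA was measured in 14 mammary tumors of MMTV-PyMT mice, in which the mouse mammary tumor virus promoter drives the polyomavirus middle T oncogene, so that every tumor of the series carries this transgene. In *Lats2*-CKO PyMT mice a floxed *Lats2* allele is cut by Cre under the same promoter, in *Lats1*-CKO PyMT mice a floxed *Lats1* allele, and WT-PyMT littermates keep both genes. The study describes the deletion as mammary-specific, and bulk RNA does not show which cells of a tumor kept the targeted gene. One experiment holds WT-PyMT tumors 14 and 2 (adenoma) and 1 (carcinoma) beside *Lats2*-CKO tumors 7 (adenoma) and 1, 16 and 8 (carcinoma). The other holds WT-PyMT tumors 20 and 22 (adenoma) and 17 (carcinoma) beside *Lats1*-CKO tumors 27 (adenoma), 18 and 14 (carcinoma) and 21 (adenosquamous carcinoma). In the *Lats2* experiment each tumor is stated to come from a different mouse. The study examined tumors at 3 months of age, although the labels give no age for the sequenced ones. Within each group the libraries are named by their tumor number.

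New fatty acids are made from acetyl-CoA. ATP citrate lyase (*Acly*) cleaves citrate and acetyl-CoA synthetase (*Acss2*) activates acetate to supply it, acetyl-CoA carboxylase (*Acaca*) turns it into malonyl-CoA, and fatty acid synthase (*Fasn*) joins these units to palmitate with NADPH, part of which comes from malic enzyme (*Me1*). *Elovl6* lengthens palmitate to stearate, and the stearoyl-CoA desaturases *Scd1* and *Scd2* put in a first double bond. *Thrsp*, also called Spot 14, is a small protein of lipogenic tissues that is known for its part in milk fat synthesis in mice. *Srebf1* encodes SREBP-1, which is cut from its membrane-bound precursor to become an activator of these enzyme genes, so that its mRNA level and its activity need not go together. In the mammary gland this pathway is active in the fat cells of the fat pad and in the secretory epithelium of lactation.

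The members lie on 6 chromosomes of GRCm38. *Fasn*, *Acaca*, *Acly* and *Srebf1* are on chromosome 11, and *Scd2* and *Scd1* are neighbors on chromosome 19, separated by 87.6 kb. RefSeq promoter windows of build GRCm38.p6 were matched for 8 of the 10 members, with 11 windows in all, and were read over the 250 bases before each start. Windows of *Fasn*, with the largest fold change of the members in the *Lats2* experiment, of *Acss2*, whose level followed *Fasn* most closely among the members, of *Thrsp*, in which 1 tumor of each knockout group stood apart, and of *Srebf1*, whose level did not follow the enzymes, are shown 5′ to 3′ on the strand of the gene. Capitals mark matches, on either strand, to CCAAT, the site of NF-Y, and to GGGCGG, the GC box of Sp1.
*Fasn*, chr11:120824548-120824797, minus strand: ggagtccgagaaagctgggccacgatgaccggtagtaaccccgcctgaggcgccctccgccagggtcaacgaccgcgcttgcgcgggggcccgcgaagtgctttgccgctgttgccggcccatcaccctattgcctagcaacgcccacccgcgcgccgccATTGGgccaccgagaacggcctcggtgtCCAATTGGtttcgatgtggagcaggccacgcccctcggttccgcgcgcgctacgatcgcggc
*Acss2*, chr2:155517793-155518042, plus strand: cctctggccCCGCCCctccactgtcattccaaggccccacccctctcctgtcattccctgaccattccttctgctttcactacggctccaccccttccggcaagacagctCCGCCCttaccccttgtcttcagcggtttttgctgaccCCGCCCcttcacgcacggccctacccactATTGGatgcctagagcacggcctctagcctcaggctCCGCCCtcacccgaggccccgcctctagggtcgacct
*Thrsp*, chr7:97417551-97417800, minus strand: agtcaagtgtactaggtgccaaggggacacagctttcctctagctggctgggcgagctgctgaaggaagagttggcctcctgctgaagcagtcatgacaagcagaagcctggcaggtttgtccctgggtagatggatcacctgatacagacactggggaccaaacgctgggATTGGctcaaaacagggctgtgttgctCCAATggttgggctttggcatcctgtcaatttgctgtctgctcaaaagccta
*Srebf1*, chr11:60210472-60210721, minus strand: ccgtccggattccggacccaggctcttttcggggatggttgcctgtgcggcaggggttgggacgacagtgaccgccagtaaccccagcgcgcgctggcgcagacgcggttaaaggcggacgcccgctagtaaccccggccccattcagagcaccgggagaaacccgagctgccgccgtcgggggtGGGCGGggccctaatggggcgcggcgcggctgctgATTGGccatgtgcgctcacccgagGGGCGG
The last is the most downstream of 3 *Srebf1* windows. The *Fasn* window held 3 CCAAT matches, of which 2 overlap each other on opposite strands, and no GC box. The *Acss2* window held 1 CCAAT match and 4 GC boxes, the *Thrsp* window 2 CCAAT matches and no GC box, and this *Srebf1* window 1 CCAAT match and 2 GC boxes. Over all members, 6 of the 11 windows held CCAAT, against 33.8% of the 32851 windows of all genes, and 5 of 11 held GGGCGG, against 32.7%. Neither TCACNCCAC, a form of the sterol regulatory element, nor the E-box CACGTG, which is the same on both strands, was found in any of the 11 windows. They occur in 1.05% and 6.02% of all windows, so their absence from 11 windows does not set the members apart. Some of the windows lie inside the gene, among them the only *Acaca* window. A match, or the lack of a match, is a description of the letters only.

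The libraries hold 18593900 to 31909300 counts on genes, and the lowest count of a member in any library was 453 (*Acss2*), and the errors below are those of the spread between tumors. *Lats1* was at 32.9 to 38.3 CPM (counts scaled to the size of the library, with TMM factors within an experiment) in the *Lats1*-CKO libraries and at 108 to 128 CPM in their WT-PyMT libraries. *Lats2* was at 8.26, 15.9 and 10.6 CPM in *Lats2*-CKO 7, 16 and 8 and at 32.5 CPM in the library labelled *Lats2*-CKO 1, beside 53.3, 28.9 and 23.0 CPM in WT-PyMT 14, 2 and 1, and the deleted exon is counted together with the rest of the gene. The fold changes of the members are therefore also given without this library, and the marker lists, pathway lists and correlations only with it. In both experiments the luminal epithelial markers were present in every library, with a summed level of 1135, 3741 and 4714 CPM in WT-PyMT 14, 2 and 1 and 2831 to 5254 CPM in *Lats2*-CKO, and of 4076 to 4987 CPM and 3485 to 4569.7 CPM in WT-PyMT and *Lats1*-CKO of the other experiment. WT-PyMT 14 thus had the lowest luminal level of all 14 libraries. WT-PyMT 14 and 2 stood apart by fat cell markers, and *Lats2*-CKO 7 by milk and muscle markers, as given beside the results. In such bulk RNA, fewer cells of a type and less RNA per cell cannot be told apart.

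Compared per kilobase of exon (RPKM, on the union of exons of the GENCODE annotation), *Scd1* had the highest level of the members in WT-PyMT tumors, with 1821 ± 1189 RPKM (SD, n = 3) in the *Lats2* experiment and 578 ± 242 RPKM (n = 3) in the *Lats1* experiment. In the *Lats2* experiment it was followed by *Thrsp* (317 ± 134 RPKM), *Fasn* (237 ± 166), *Srebf1* (224 ± 169.8), *Acly* (159 ± 59.0), *Scd2* (149 ± 85.8) and *Me1* (102 ± 50.9), neighbors that differed by less than the larger of their SDs. *Elovl6* (33.4 ± 18.5 RPKM), *Acss2* (13.2 ± 8.64) and *Acaca* (10.3 ± 6.43) were lowest. In the *Lats1* experiment the order of the WT-PyMT means after *Scd1* was *Thrsp* (364 ± 26.2 RPKM), *Srebf1* (224 ± 66.3), *Scd2* (184 ± 16.8), *Acly* (142 ± 31.1), *Fasn* (104 ± 41.4), *Me1* (41.8 ± 7.87), *Elovl6* (18.7 ± 2.41), *Acaca* (5.57 ± 1.28) and *Acss2* (4.61 ± 2.32). In that order *Scd1* and *Thrsp*, *Srebf1* and *Scd2*, *Acly* and *Fasn*, and *Acaca* and *Acss2* differed by less than the larger of their SDs. On this scale the rate-limiting carboxylase *Acaca* was at the low end of the pathway's mRNAs in both sets of controls, and the desaturase *Scd1* at the high end. Reads were counted on RefSeq genes, but the lengths are those of the GENCODE union, 17074 bases for *Acaca* and 10163 for *Acss2*. The order of the levels thus depends on the lengths used. Of the 60-base runs of the *Acaca* exons 28.8% also occur elsewhere in the annotated transcripts, mostly in the pseudogene *Gm5182*, and of those of *Me1* 24.5%, so the levels of both genes depend on how such reads were counted. For *Acss2*, 927 bases of exon overlap genes on the opposite strand, and the library kit does not mark strand.

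**Figure D1:**
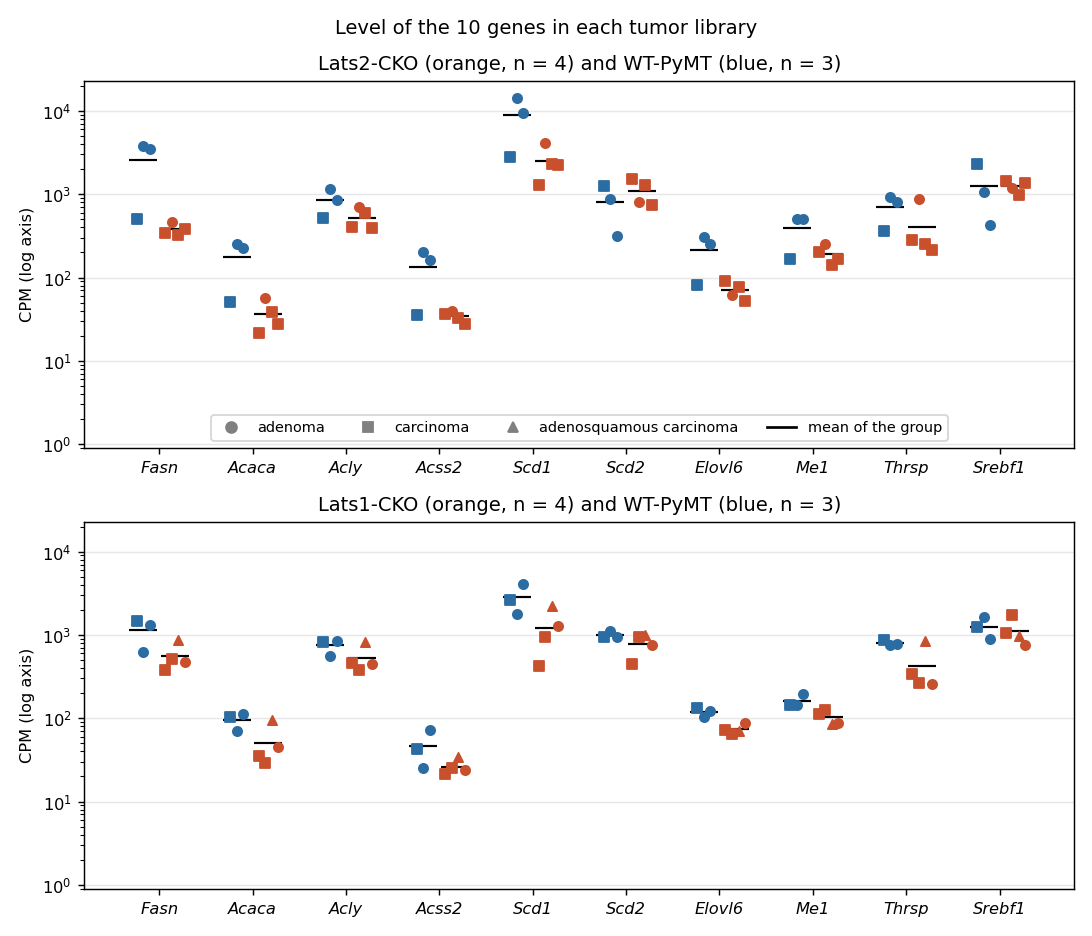
Level of each gene in each of the 14 libraries in CPM on a log axis, WT-PyMT in blue and knockout in orange, with circles for adenoma, squares for carcinoma, a triangle for adenosquamous carcinoma and a black line at the mean of the group. In the upper panel WT-PyMT 14 and 2 lie above the other 5 libraries for 7 of the genes, and the WT-PyMT carcinoma lies beside the *Lats2*-CKO tumors.

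The first comparison asks what the mammary-specific loss of *Lats2* goes with. *Fasn*, the synthase itself, was measured at 3461, 3805 and 503 CPM in WT-PyMT 14, 2 and 1 and at 346, 466, 382 and 328 CPM in *Lats2*-CKO 1, 7, 16 and 8. The groups did not overlap, but WT-PyMT 1 was far closer to the knockout tumors than to the other WT-PyMT tumors. The mean was 6.81-fold lower in *Lats2*-CKO (log2 fold change -2.77, SE 0.63, unadjusted p = 0.00289 and adjusted p = 0.688 from edgeR). *Acaca*, which makes malonyl-CoA, was at 228, 251 and 50.3 CPM in WT-PyMT and at 21.5, 57.3, 27.6 and 38.4 CPM in *Lats2*-CKO, in the same order of tumors. The highest knockout value, in tumor 7, exceeded WT-PyMT 1, and the mean was 4.88-fold lower (log2 fold change -2.29, SE 0.57, unadjusted p = 0.00468, adjusted p = 0.688 from edgeR). For both enzymes the large distance is that of WT-PyMT 14 and 2 from the other 5 tumors.

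The genes that supply acetyl-CoA and NADPH had the same outline at a smaller size. *Acss2* was at 164, 203 and 35.2 CPM in WT-PyMT 14, 2 and 1 and at 36.3, 40.0, 27.7 and 32.9 CPM in *Lats2*-CKO 1, 7, 16 and 8. WT-PyMT 1 lay inside the knockout range (log2 fold change -1.97, SE 0.52, unadjusted p = 0.00604 from edgeR). *Me1*, the malic enzyme, was at 505, 508 and 167 CPM and at 200.1, 255, 168 and 143 CPM, again with WT-PyMT 1 within the knockout range (-1.04, SE 0.40, unadjusted p = 0.0349). *Acly* was at 855, 1146 and 523 CPM in WT-PyMT and 399.7, 694, 397 and 591 CPM in *Lats2*-CKO. Its log2 fold change of -0.69 (SE 0.34, unadjusted p = 0.0795) was the smallest of the 3, and *Lats2*-CKO 7 and 8 exceeded WT-PyMT 1.

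The enzymes that modify palmitate differed among themselves. *Scd1*, the main desaturase of fat and liver in mice, was at 9521, 14390.5 and 2806 CPM in WT-PyMT and at 1290.2, 4153, 2215 and 2278 CPM in *Lats2*-CKO, the adenoma *Lats2*-CKO 7 being above WT-PyMT 1 (log2 fold change -1.84, SE 0.67, unadjusted p = 0.0279 from edgeR). *Scd2*, its neighbor on the chromosome, was at 311, 883 and 1241 CPM in WT-PyMT and at 1513, 807, 748 and 1299 CPM in *Lats2*-CKO. It was the only member with a higher knockout mean, and the groups overlapped in part, with WT-PyMT 14 below every knockout tumor and *Lats2*-CKO 1 and 8 above every control (0.43, SE 0.50, unadjusted p = 0.420). The ratio of *Scd1* to *Scd2* counts was 30.6, 16.3 and 2.26 in WT-PyMT 14, 2 and 1 and 0.853, 5.15, 2.96 and 1.75 in *Lats2*-CKO 1, 7, 16 and 8, so it was highest in the 2 WT-PyMT adenomas and lowest in the library labelled *Lats2*-CKO 1. *Elovl6* was at 254, 309.7 and 81.3 CPM in WT-PyMT and at 91.7, 61.9, 51.8 and 77.1 CPM in *Lats2*-CKO. *Lats2*-CKO 1 exceeded WT-PyMT 1, and the log2 fold change was -1.61 (SE 0.43, unadjusted p = 0.00711 from edgeR).

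*Thrsp* was at 805, 917 and 363 CPM in WT-PyMT 14, 2 and 1 and at 285, 877, 215 and 251 CPM in *Lats2*-CKO 1, 7, 16 and 8. *Lats2*-CKO 7 stood at the level of the WT-PyMT adenomas, and the other 3 knockout tumors were below every WT-PyMT tumor (log2 fold change -0.77, SE 0.57, unadjusted p = 0.219 from edgeR). Without *Lats2*-CKO 7 the log2 fold change was -1.52 (unadjusted p = 0.00731, adjusted p = 0.765 from edgeR). In *Lats2*-CKO 7 the 12 milk and alveolar markers, casein genes among them, summed to 78318 CPM, against 4727 to 11657 CPM in the other knockout tumors. Their part in the *Thrsp* level was not tested. *Srebf1* was at 427, 1051 and 2305 CPM in WT-PyMT 14, 2 and 1 and at 1458, 1182, 1373 and 987 CPM in *Lats2*-CKO. It was lowest in WT-PyMT 14 and highest in WT-PyMT 1, the control in which *Fasn* was lowest, and WT-PyMT 14 was also the lowest library of this experiment for *Scd2* and for the luminal markers, whose part in these values was not tested. The 4 knockout values of *Srebf1* lay between those of WT-PyMT 14 and 1. Its log2 fold change was -0.013 (SE 0.53, 95% confidence interval -1.25 to 1.22), an interval that leaves room for a change of more than 1 log2 unit either way. The ratio of *Srebf1* to *Fasn* counts was 0.123, 0.276 and 4.59 in WT-PyMT 14, 2 and 1, and 4.22, 2.54, 3.60 and 3.01 in *Lats2*-CKO.

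**Figure D2:**
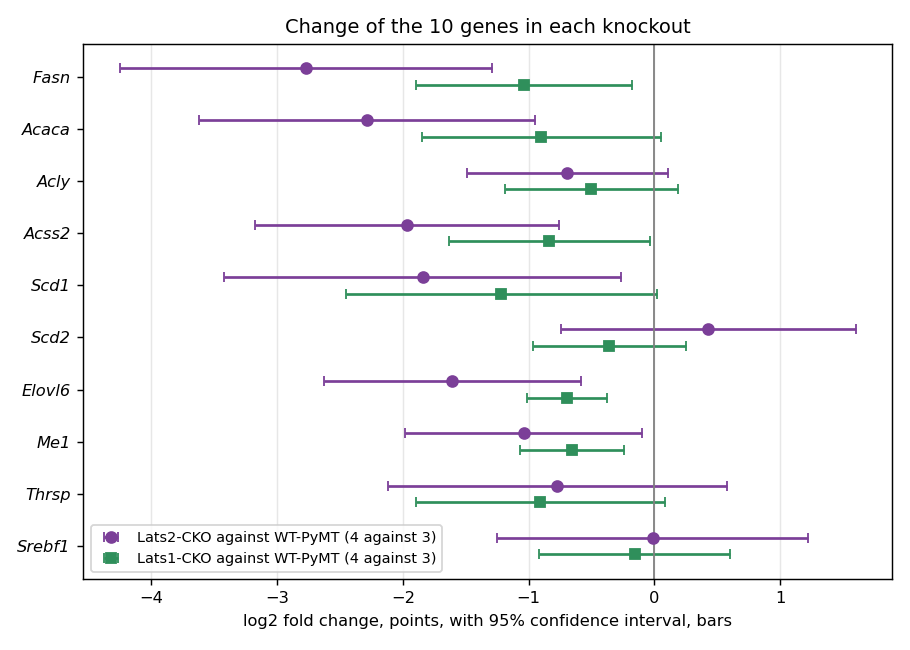
Log2 fold change of each gene (points) with its 95% confidence interval (bars) from the edgeR fit, in *Lats2*-CKO (purple circles) and *Lats1*-CKO (green squares), each against its 3 WT-PyMT tumors. The *Lats2* estimates reach from -2.77 for *Fasn* to 0.43 for *Scd2*, the *Lats1* estimates from -1.22 for *Scd1* to -0.16 for *Srebf1*, and the *Lats2* intervals are wider.

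In the *Lats2* comparison 9 of the 10 members had a lower mean in the knockout, and their median log2 fold change was -1.32, beside -0.0028 over all 17702 genes. No member passed the edgeR test at an adjusted p of 0.05, and neither did any other gene (0 of 17702, 0%), with 1254 genes at an unadjusted p under 0.05. At that unadjusted threshold 6 members were lower (*Fasn*, *Acaca*, *Acss2*, *Scd1*, *Elovl6* and *Me1*) and 0 higher, where 5.91% of all genes were lower and 7.08% differed in either direction. DESeq2, the tool of the study's methods, called 138 genes, and of the members *Fasn* (adjusted p = 0.00386) and *Acaca* (adjusted p = 0.0281), both lower, where it called 0.684% of all genes lower. *Fasn* was the only member whose groups did not overlap, and 2.26% of all genes were lower in this way.

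These numbers rest on few tumors. Without WT-PyMT 1, the control with carcinoma histology, edgeR called 57 of 17702 genes, with 2608 at an unadjusted p under 0.05. Among the 57 were *Fasn* (log2 fold change -3.30, adjusted p = 0.0252), *Acss2* (-2.47, adjusted p = 0.0227) and *Elovl6* (-2.04, adjusted p = 0.0419). Among carcinomas alone, 1 WT-PyMT tumor against 3 *Lats2*-CKO tumors, the median of the members was -0.35. *Fasn* then had a log2 fold change of -0.51, *Acss2* of -0.13 and *Me1* of 0.025. This alternative was added after the data were seen, and the lone control is assumed to vary like the others. Without the library labelled *Lats2*-CKO 1, *Fasn*, *Acaca*, *Acss2* and *Elovl6*, at -2.73, -2.10, -2.00 and -1.76, had an unadjusted p under 0.05, among 702 such genes. *Scd1*, *Me1*, *Acly*, *Thrsp*, *Scd2* and *Srebf1* were then at -1.63, -1.06, -0.59, -0.64, 0.23 and -0.095. Leaving out *Lats2*-CKO 7 as well, which was also added after the data were seen, left 5 members at that threshold and a median of -1.70. Of all genes 413 were then at it in either direction.

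The fat cell markers moved with the members in this experiment. All 15 adipocyte markers had a lower mean in *Lats2*-CKO, with a median log2 fold change of -4.86, 14 at an unadjusted p under 0.05, 0 past the edgeR test and 11 called lower by DESeq2. Their summed level, led by *Car3*, *Fabp4* and *Cfd*, was 8045, 9761 and 185 CPM in WT-PyMT 14, 2 and 1 and 30.7, 688, 136 and 171 CPM in *Lats2*-CKO 1, 7, 16 and 8. None of the 15 was at 0 in any of these libraries. The 2 libraries with the highest marker level are those with the highest *Fasn*, and WT-PyMT 1 lies within the knockout range for the markers as it nearly does for *Fasn*. With the mean of these markers as a covariate, *Fasn* had a log2 fold change of -0.78 (unadjusted p = 0.297 from edgeR), and *Acly* and *Thrsp* turned to 0.092 and 0.35. In that fit 0 members had an unadjusted p under 0.05. Of all genes 353 then had one, beside 1254 without the covariate, so fewer genes of any kind reached the threshold. With carcinoma as a covariate *Fasn* was at -1.69 and *Acaca* at -1.40, and these 2 kept an unadjusted p under 0.05, among 324 such genes. WT-PyMT 14 was also the library with the most T and NK cell markers, 1599.9 CPM summed against 12.0 to 18.7 CPM in WT-PyMT 1 and 2. With 2 of the 3 controls rich in fat cell markers and of adenoma histology, genotype, histology and fat cell content cannot be told apart for the members here.

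**Figure D3:**
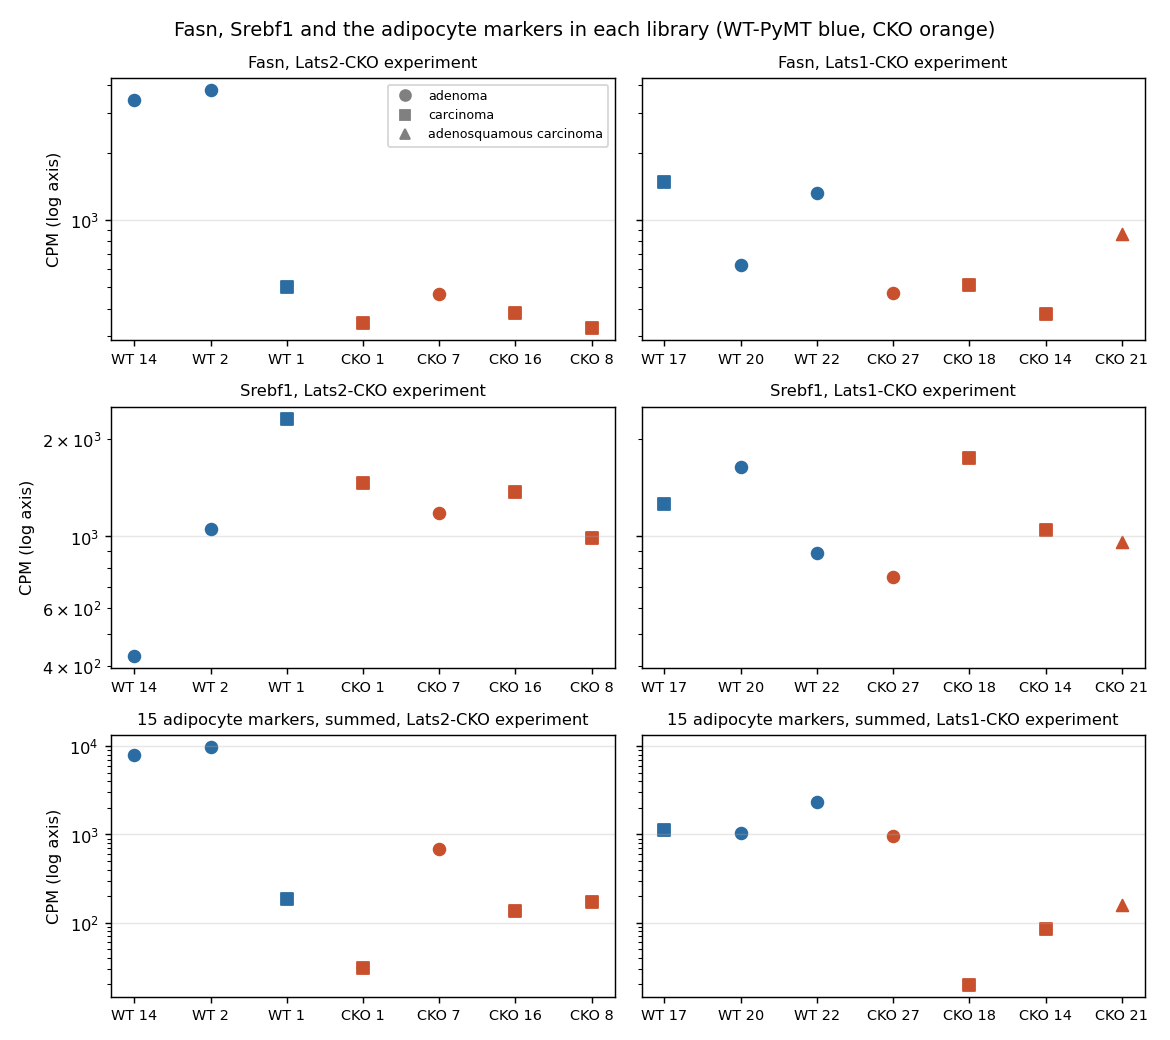
*Fasn*, *Srebf1* and the sum of the 15 adipocyte markers in each library in CPM on log axes, with the *Lats2* experiment on the left, the *Lats1* experiment on the right, and WT-PyMT in blue and knockout in orange (circles adenoma, squares carcinoma, triangle adenosquamous carcinoma). On the left WT-PyMT 14 and 2 are highest for *Fasn* and for the markers while *Srebf1* is lowest in WT-PyMT 14, and on the right *Lats1*-CKO 27 has the marker level of the WT-PyMT tumors and a lower *Fasn*.

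The second comparison asks the same of the loss of *Lats1*. *Fasn* was at 1478, 625 and 1314 CPM in WT-PyMT 17, 20 and 22 and at 468, 509, 379 and 863 CPM in *Lats1*-CKO 27, 18, 14 and 21. The adenosquamous tumor 21 exceeded WT-PyMT 20, and the other 3 knockout tumors were below all controls. The mean was 2.05-fold lower (log2 fold change -1.04, SE 0.37, unadjusted p = 0.0243, adjusted p = 0.401 from edgeR). *Acaca* was at 104, 70.2 and 111 CPM in WT-PyMT and at 45.8, 28.8, 35.5 and 94.2 CPM in *Lats1*-CKO, with the same outline (-0.90, SE 0.41, unadjusted p = 0.0604). *Acly* was at 829, 559 and 855 CPM and at 447, 379, 456 and 828 CPM. Here too tumor 21 reached the control range and the rest lay below it (-0.50, SE 0.29, unadjusted p = 0.128).

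*Elovl6* and *Me1* were the 2 members whose groups did not overlap, where 6.47% of all genes were lower in this way. *Elovl6* was at 133, 103 and 124 CPM in WT-PyMT 17, 20 and 22 and at 88.3, 64.4, 72.5 and 70.8 CPM in *Lats1*-CKO 27, 18, 14 and 21. Its mean was 120.05 ± 15.5 CPM (SD, n = 3) against 74.0 ± 10.2 CPM (n = 4), a log2 fold change of -0.70 (SE 0.14, unadjusted p = 0.00112, adjusted p = 0.188 from edgeR). *Me1* was at 143, 144 and 196 CPM in WT-PyMT and at 88.4, 124, 112 and 84.8 CPM in *Lats1*-CKO (-0.65, SE 0.18, unadjusted p = 0.00713, adjusted p = 0.294 from edgeR). For both genes the adenosquamous tumor 21 was among the other knockout tumors, unlike for *Fasn*, *Acaca* and *Acly*. *Acss2* was at 43.2, 25.3 and 72.1 CPM and at 24.0, 25.2, 21.2 and 34.7 CPM, with WT-PyMT 20 at the level of the knockout tumors (-0.84, SE 0.34, unadjusted p = 0.0426).

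*Scd1* was at 2624, 1761 and 4099.7 CPM in WT-PyMT 17, 20 and 22 and at 1277, 953, 429 and 2208 CPM in *Lats1*-CKO 27, 18, 14 and 21. It was lowest in tumor 14 and highest in tumor 21 of the knockout group, and its log2 fold change of -1.22 had an SE of 0.53 (unadjusted p = 0.0528 from edgeR). *Scd2* was at 954, 1111 and 949.9 CPM and at 750.1, 942, 453 and 993 CPM (-0.36, SE 0.26, unadjusted p = 0.208). The ratio of *Scd1* to *Scd2* counts was 2.75, 1.59 and 4.32 in WT-PyMT and 1.70, 1.01, 0.947 and 2.22 in *Lats1*-CKO, with overlap between the groups. *Thrsp* was at 863, 759 and 770.1 CPM in WT-PyMT and at 255, 266, 339 and 842 CPM in *Lats1*-CKO. The controls were close together, 3 knockout tumors were well below them and tumor 21 was at their level (-0.91, SE 0.42, unadjusted p = 0.0680). *Srebf1* was at 1257, 1634 and 887 CPM in WT-PyMT and at 751, 1751, 1048 and 964 CPM in *Lats1*-CKO. The highest value was in *Lats1*-CKO 18 and the lowest in *Lats1*-CKO 27, and the log2 fold change was -0.16 (SE 0.32, 95% confidence interval -0.91 to 0.60).

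All 10 members had a lower mean in *Lats1*-CKO, with a median log2 fold change of -0.77, beside -0.0029 over all 17763 genes. edgeR called 4 genes (0.0225%), none of them a member. At an unadjusted p under 0.05 the members *Fasn*, *Acss2*, *Elovl6* and *Me1* were lower and 0 were higher, where 6.58% of all genes were lower and 11.3% differed in either direction. DESeq2 called *Elovl6* (adjusted p = 0.00149) and *Me1* (adjusted p = 0.0334) lower, where it called 1.69% of all genes lower and 1.62% higher, 588 genes in all. Without *Lats1*-CKO 21 the edgeR count at an unadjusted p under 0.05 was 8 members, *Acly*, *Acaca*, *Scd1* and *Thrsp* being added. Of all genes 2338 were then at that threshold in either direction, and 19 passed the test. *Thrsp* was among those that passed (log2 fold change -1.48, adjusted p = 0.0388 from edgeR). Leaving out WT-PyMT 17 or 22, or *Lats1*-CKO 27, 18 or 14, left 2 members at that threshold, among 1365 to 2032 genes.

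All 15 adipocyte markers had a lower mean in *Lats1*-CKO (median -2.64), with 1 at an unadjusted p under 0.05, 0 past the edgeR test and 1 called by DESeq2, and 8 of the 15 had groups that did not overlap (6.47% of all genes). Of the 6 brown adipocyte markers 5 were lower at an unadjusted p under 0.05 and 2 were called by DESeq2 (4 and 2 in the *Lats2* comparison). The 15 adipocyte markers summed to 1134, 1042 and 2326 CPM in WT-PyMT 17, 20 and 22. In *Lats1*-CKO 27, 18, 14 and 21 they summed to 958, 19.7, 83.7 and 157 CPM. *Plin1*, *Lep*, *Pck1* and *Aqp7* were at 0 in 1 library each. The sums of tumors 27 and 21 run opposite to their *Fasn*. Tumor 27 had nearly the marker level of the controls and *Fasn* at 468 CPM, and tumor 21 had few markers and *Fasn* at 863 CPM. With the marker mean as a covariate, *Fasn* had a log2 fold change of -1.01 (unadjusted p = 0.180 from edgeR), close to its value without it. *Acaca*, *Acly*, *Acss2*, *Scd1* and *Elovl6* moved toward 0, to -0.47, -0.33, -0.64, -0.73 and -0.40. *Scd2*, *Me1*, *Thrsp* and *Srebf1* moved away from it, to -0.54, -0.89, -1.08 and -1.03. *Elovl6*, *Me1* and *Srebf1* had an unadjusted p under 0.05, among 1731 such genes in either direction. The part of fat cells in the levels of the members was not tested. Milk markers ran from 8382 to 25508 CPM in *Lats1*-CKO and from 12566 to 21894 CPM in WT-PyMT (10 of 12 with a lower mean, median -0.92). Among carcinomas alone, 1 WT-PyMT against 3 *Lats1*-CKO tumors, the median of the members was -0.76.

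**Figure D4:**
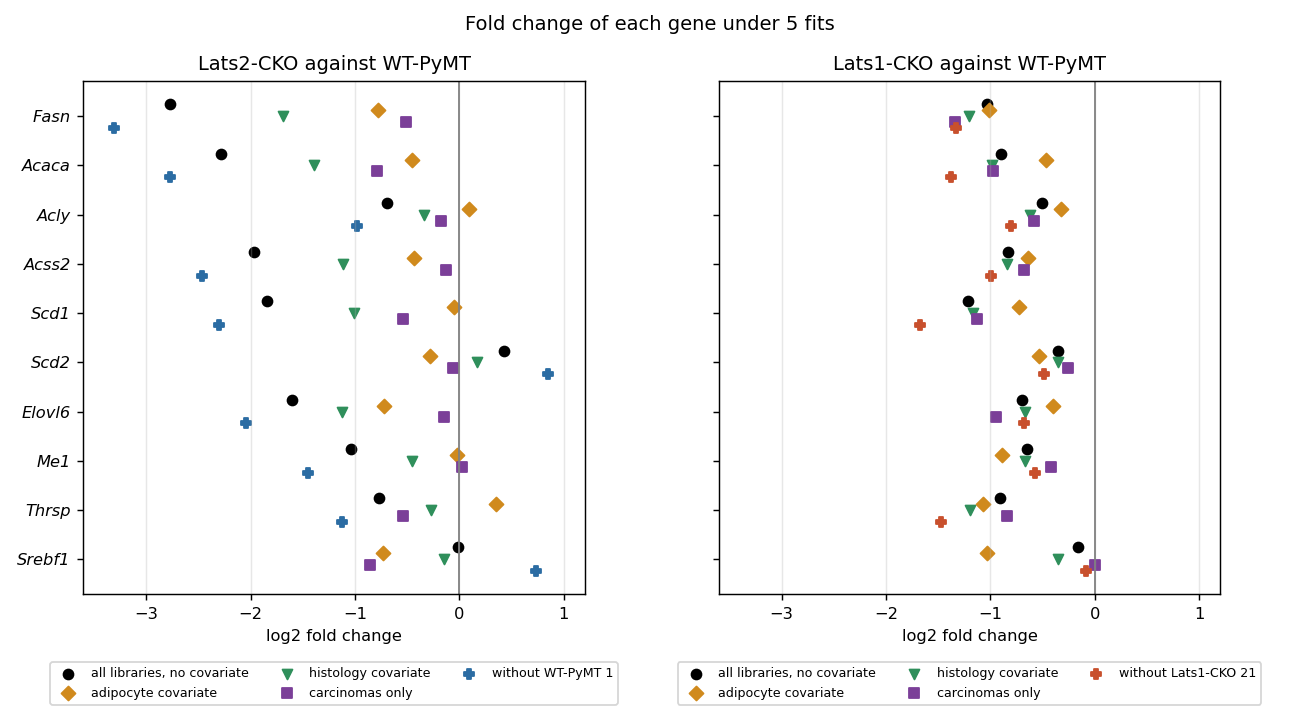
Log2 fold change of each gene under 5 edgeR fits in the *Lats2* comparison (left) and the *Lats1* comparison (right), with the fit of all libraries as black circles, the adipocyte-marker mean as a covariate as orange diamonds, carcinoma as a covariate as green triangles, carcinomas only as purple squares and 1 library left out as crosses. On the left *Fasn* lies between -3.30 and -0.51 and moves toward 0 with either covariate. On the right *Fasn* lies between -1.34 and -1.01, nearest to 0 with the adipocyte-marker covariate.

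The fold changes in the 2 knockouts were set against each other in a fit of 4 groups, with a positive value where *Lats1*-CKO had the less negative change. edgeR called 3 of 17232 genes (0.0174%) and 0 members, and DESeq2 0.0522% of genes with a lower and 0.0406% with a higher value and again 0 members. The difference was 1.77 for *Fasn* (SE 0.77, unadjusted p = 0.0393, adjusted p = 0.913 from edgeR), the only member with an unadjusted p under 0.05, where 1.97% of all genes were higher and 1.2% lower in this way. For *Acaca* the difference was 1.43 (95% confidence interval -0.22 to 3.07), for *Scd2* -0.76 (-2.03 to 0.52) and for *Srebf1* -0.12 (-1.53 to 1.29). These intervals do not show that the genotypes act alike on the genes. Scaled together over both experiments, the mean of *Fasn* was 2691 CPM in the WT-PyMT tumors of the *Lats2* experiment (range 520.2 to 3925), 1090.1 CPM in those of the *Lats1* experiment (599 to 1429.6), 540.3 CPM in *Lats1*-CKO (371 to 840.00) and 392 CPM in *Lats2*-CKO (339 to 479). Neighbors in this order overlapped. The knockout groups were closer to each other than the 2 control groups were, and the experiments were deposited as separate tables, so a level set across them also holds any difference between the experiments. For *Srebf1* the 4 means were 1306, 1207, 1099 and 1289.8 CPM, and every pair of ranges overlapped.

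Histology was compared within the 4 groups, as carcinoma (with the adenosquamous tumor) against adenoma over all 14 libraries. edgeR called 0 of 17232 genes (0%), with 613 genes at an unadjusted p under 0.05 (2.18% of all genes lower in carcinoma and 1.38% higher) and 44 called by DESeq2 (0.244% lower and 0.0116% higher). None of the members was called by either tool or had an unadjusted p under 0.05 from edgeR. Their median was -0.42, beside -0.015 over all genes, with 8 of 10 lower in carcinoma. *Scd1* had the lowest estimate (-0.81, SE 0.46, unadjusted p = 0.108). *Me1*, with a smaller estimate (-0.50, SE 0.24), had the smallest p of the members (unadjusted p = 0.0631). *Srebf1* and *Scd2* were the 2 with higher means in carcinoma, at 0.63 (SE 0.32, unadjusted p = 0.0734) and 0.41 (SE 0.31). *Fasn* was at -0.34 (SE 0.47), and at 0.15 without WT-PyMT 1. All 15 adipocyte markers had lower means in carcinoma (median -3.14) with 15 at an unadjusted p under 0.05, and with their mean as a covariate *Fasn* was at 0.43 and *Srebf1* at -0.21.

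Across the 14 libraries, with the mean of each experiment removed, the members other than *Scd2* and *Srebf1* were positively correlated with *Fasn*, and these 2 were not. The libraries share depth and tissue content, WT-PyMT 14 and 2 stand apart, and the correlations of log2 CPM are given as a description. *Fasn* had r = 0.97 (rho 0.93) with *Acss2*, 0.95 (0.88) with *Acaca* and 0.89 (0.90) with *Scd1*. Without WT-PyMT 14 and 2 these were 0.86, 0.84 and 0.86 over 12 libraries. *Me1* and *Elovl6*, at 0.86 and 0.91 with *Fasn*, depended more on the 2 libraries (0.49 and 0.56 without them). With *Srebf1*, *Fasn* had r = -0.51 (rho -0.27) and 0.039 without the 2 libraries, so the inverse relation rests on them. *Scd2* had r = -0.41 (rho -0.23) with *Fasn* and from -0.47 (*Me1*) to -0.18 (*Thrsp*) with the other members apart from *Srebf1*. Without the 2 libraries its r with *Fasn* was 0.36. *Scd2* was the member closest to *Srebf1* (r = 0.68, rho 0.47, and 0.28 without the 2 libraries).

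Among 13924 genes with a mean of at least 1 CPM, those outside the members most like *Fasn* were *Mlxipl*, which encodes the glucose-responsive factor ChREBP (r = 0.99, rho 0.95, 0.95 without WT-PyMT 14 and 2), *Por*, the cytochrome P450 reductase (0.98, 0.90, 0.89), *Agpat2*, an acyltransferase of glycerolipid synthesis (0.97, 0.90, 0.84), *Pygl*, the liver glycogen phosphorylase (0.95, 0.90, 0.85), and *Dhdh*, a dihydrodiol dehydrogenase (0.94, 0.85, 0.72). *Mlxipl* was at 33.5, 50.3 and 8.38 CPM in WT-PyMT 14, 2 and 1 and 4.94, 8.77, 6.50 and 5.18 CPM in *Lats2*-CKO 1, 7, 16 and 8, and at 17.2, 10.4 and 19.96 CPM in WT-PyMT 17, 20 and 22 and 9.03, 7.51, 6.56 and 12.4 CPM in *Lats1*-CKO 27, 18, 14 and 21. As for *Fasn*, tumor 21 had the highest value of the *Lats1*-CKO tumors. Most like *Srebf1* were *Amacr*, *Esyt3*, *B230206H07Rik*, *Atf7* and *Eml2*, with r from 0.92 to 0.93 and from 0.85 to 0.89 without the 2 libraries. *Amacr* encodes a racemase of branched-chain acyl-CoA, and none of the 5 is a lipogenic enzyme of the lists used here.

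The neighboring steps of the pathway were read from 6 lists of genes. No gene of any list passed the edgeR test in either knockout, so the counts below are of genes at an unadjusted p under 0.05, beside 5.91% of all genes lower in *Lats2*-CKO and 6.58% in *Lats1*-CKO. Genes said to be without overlap are to be read beside the 2.26% of all genes lower and 1.43% higher in this way in *Lats2*-CKO and the 6.47% lower in *Lats1*-CKO. Of the 14 genes of glycerolipid assembly, which put fatty acids onto glycerol, 5 lower and 0 higher were counted in *Lats2*-CKO (median -0.64). *Dgat2*, which makes triglyceride, was at 555, 599.8 and 17.3 CPM in WT-PyMT 14, 2 and 1 and at 12.4, 20.1, 16.9 and 10.8 CPM in *Lats2*-CKO 1, 7, 16 and 8 (-4.70, SE 1.01, unadjusted p = 0.00203), with WT-PyMT 1 among the knockout tumors. The distance is again that of WT-PyMT 14 and 2, the libraries rich in adipocyte markers, whose part in the values of these lists was not tested. *Agpat2* was at 246, 243 and 37.8 CPM and at 24.1, 36.7, 35.1 and 29.8 CPM (-2.48, SE 0.58, unadjusted p = 0.00317). DESeq2 called both lower (adjusted p = 0.000296 and 0.0118). In *Lats1*-CKO the count was 5 lower and 1 higher (median -0.21). *Agpat2* was at 90.6, 47.6 and 92.4 CPM in WT-PyMT 17, 20 and 22 and at 38.3, 36.5, 34.3 and 33.8 CPM in *Lats1*-CKO 27, 18, 14 and 21 (-1.11, SE 0.22, unadjusted p = 0.00139), without overlap. *Lpin2*, a phosphatidate phosphatase, went the other way (0.66, SE 0.17, unadjusted p = 0.00500).

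Of the 23 regulators of lipogenesis, 3 lower and 0 higher were counted in *Lats2*-CKO (median -0.035) and 6 lower and 0 higher in *Lats1*-CKO (median -0.10). In *Lats2*-CKO these were *Pnpla3*, a lipid droplet protein (-5.22, SE 1.10, unadjusted p = 0.00189), *Mlxipl* (-2.28, SE 0.56, unadjusted p = 0.00429) and *Nr1h3*, the liver X receptor alpha (-1.57, SE 0.50, unadjusted p = 0.0151). *Srebf2*, *Scap*, *Insig1* and *Insig2*, named here for their part in SREBP processing and after their values were seen, had log2 fold changes of 0.12, 0.25, -0.62 and 0.076 in *Lats2*-CKO and of -0.076, -0.34, 0.16 and -0.031 in *Lats1*-CKO, where *Scap* had an unadjusted p of 0.0221. In *Lats1*-CKO the smallest p were those of *Usf1* (-0.36, SE 0.097, unadjusted p = 0.00685), *Thrb*, a thyroid hormone receptor (-1.29, SE 0.37, unadjusted p = 0.00918), and *Pnpla3* (-2.90, SE 0.85, unadjusted p = 0.0104). Of the 14 genes that supply acetyl-CoA and NADPH, 2 lower and 0 higher were counted in *Lats2*-CKO (median -0.31), the citrate carrier *Slc25a1* (-1.44, SE 0.43, unadjusted p = 0.0121) and *Idh1* (-0.62, SE 0.25, unadjusted p = 0.0413), and 4 lower and 0 higher in *Lats1*-CKO (median -0.27), led by the transketolase *Tkt* (-0.39, SE 0.11, unadjusted p = 0.00956).

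The malonyl-CoA list, with 7 genes measured, held 0 lower and 0 higher in *Lats2*-CKO (median -0.12) and 3 lower and 0 higher in *Lats1*-CKO (median -0.084). *Acacb*, the mitochondrial carboxylase that restrains fatty acid oxidation, was at 121, 51.6 and 64.7 CPM in WT-PyMT 17, 20 and 22 and at 21.1, 21.6, 16.3 and 42.9 CPM in *Lats1*-CKO 27, 18, 14 and 21 (-1.64, SE 0.40, unadjusted p = 0.00447), without overlap. In the *Lats2* experiment it was at 151, 99.4 and 60.3 and 12.0, 58.4, 43.7 and 63.4 CPM, with overlap (-1.23, SE 0.55, unadjusted p = 0.0610). Of 7 acyl-CoA synthetases, 2 lower and 0 higher were counted in *Lats2*-CKO (median -0.081) and 3 lower and 0 higher in *Lats1*-CKO (median -0.39). *Acsl1*, which activates long-chain fatty acids, was at 232, 175 and 193 CPM in WT-PyMT and at 103, 79.7, 83.0 and 98.1 CPM in *Lats1*-CKO (-1.13, SE 0.14, unadjusted p = 5.39e-05, adjusted p = 0.0763 from edgeR and 2.89e-09 from DESeq2). Its groups did not overlap. Of the 16 other elongation and desaturation genes, 2 lower and 1 higher were counted in *Lats2*-CKO (median 0.10) and 1 lower and 0 higher in *Lats1*-CKO (median 0.14). Those lower were *Elovl3* and *Fads3* in *Lats2*-CKO and *Elovl3* in *Lats1*-CKO. *Elovl3*, which is also on the brown adipocyte list, was near the floor. It was at 6.55, 0.433 and 0.927 CPM in WT-PyMT 14, 2 and 1 and at 0, 0.185, 0 and 0 CPM in *Lats2*-CKO 1, 7, 16 and 8. In WT-PyMT 17, 20 and 22 it was at 12.6, 0.423 and 1.55 CPM, and in *Lats1*-CKO 27, 18, 14 and 21 at 0.606, 0, 0 and 0.103 CPM. The gene that was higher was *Fads1*, the delta-5 desaturase of polyunsaturated fatty acids, at 65.3, 147 and 115 CPM in WT-PyMT 14, 2 and 1 and 157, 218, 189.7 and 204 CPM in *Lats2*-CKO 1, 7, 16 and 8 (0.82, SE 0.28, unadjusted p = 0.0215), without overlap.

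**Figure D5:**
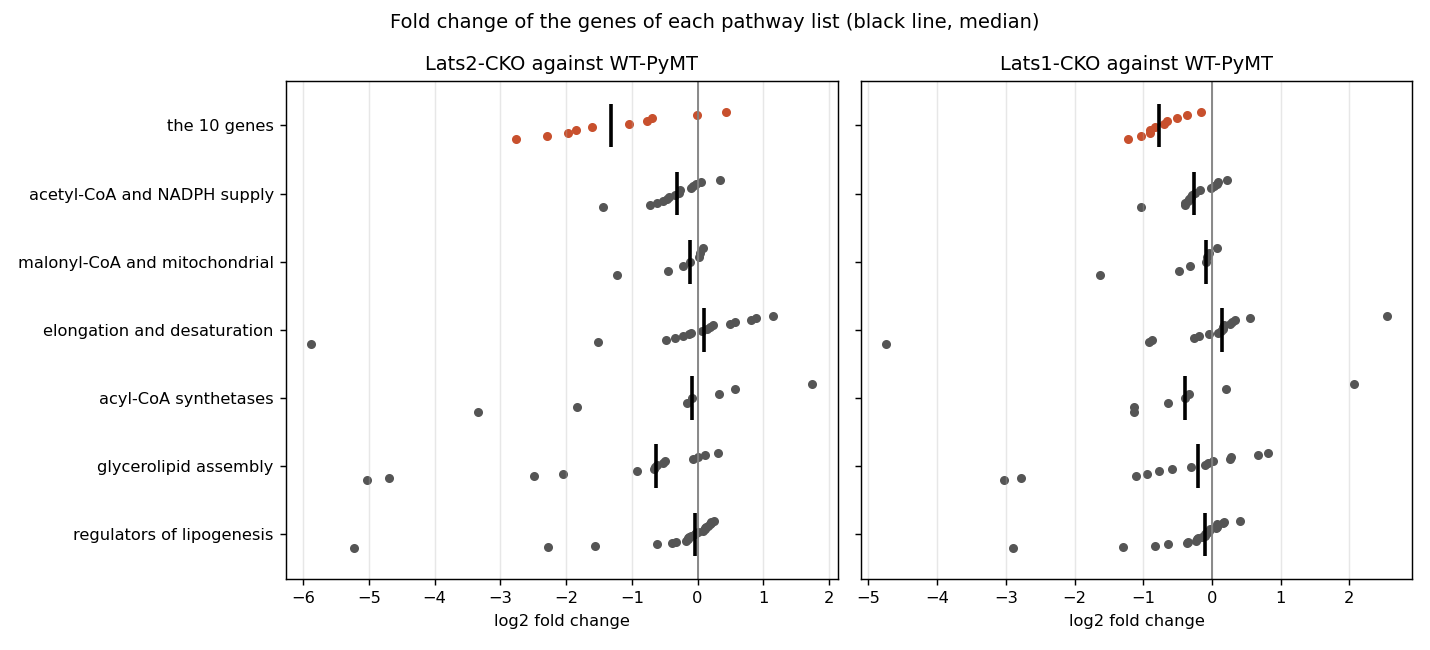
Log2 fold change of every measured gene of the 10 members (orange) and of the 6 pathway lists (grey) in *Lats2*-CKO (left) and *Lats1*-CKO (right), 1 point a gene, with a black line at the median. The median of the members is -1.32 on the left and -0.77 on the right, and those of the other lists lie between -0.64 and 0.10 and between -0.39 and 0.14.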

How the data were processed

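Tumor RNA (500 ng) was made into TruSeq version 2 libraries, 7 to a lane, and read as single 60-base reads. The authors aligned them to mm10 with STAR (version not given in the sources used here) and counted reads per RefSeq gene. The deposited values are raw counts per gene, in 1 table for each experiment, and the study's methods kept genes with at least 5 counts. Each table was tested with edgeR 4.0.16 in R 4.3.3 (TMM scaling, quasi-likelihood F test, Benjamini-Hochberg adjustment over all its genes, threshold 0.05), and again with DESeq2 1.42.0 at its defaults. SEs were taken as the log2 fold change divided by the root of F. Log2 CPM used a prior count of 2. The test code was tested on simulated data. Levels per kilobase used GENCODE exon lengths on GRCm38. The p-values are from tests that set the difference between groups against the spread between these tumors.

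The text names all 10 members, up to 3 genes of each pathway list by smallest p, up to 3 markers a list by highest mean, and the 5 genes most like *Fasn* and *Srebf1*. The members and lists were chosen with earlier results of these data known. Alternatives were other scaling, a low-count filter, a robust fit, covariates for adipocyte markers, milk markers and carcinoma, all libraries in 1 fit, and each tumor left out. Restriction to carcinomas, leaving out *Lats2*-CKO 1 and 7 together, and leaving out WT-PyMT 14 and 2 from correlations were added after seeing the data. The histology labels are those of the submitters.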

Additional observations from a re-analysis of the deposited data

Results flagged for a closer look

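*Thrsp* in *Lats2*-CKO 7 was at 877 CPM, far from 285, 215 and 251 CPM in the other 3 *Lats2*-CKO tumors. *Thrsp* in *Lats1*-CKO 21 was at 842 CPM, far from 255, 266 and 339 CPM in the other 3 *Lats1*-CKO tumors. In each case the gap to the nearest tumor, divided by the range of the group, was above the limit of Dixon's test for 4 samples (0.894 and 0.857 of the range). Of 20 such groups, the 10 members in both knockouts, these 2 were picked out, and chance picks out about 1 in 20. *Lats2*-CKO 7 was the tumor with the highest sum of milk and alveolar markers (78318 CPM) and of skeletal muscle markers (2249.7 CPM) of the 14, and *Lats1*-CKO 21, the adenosquamous carcinoma, was at 8885 CPM and 795 CPM. Their part in the *Thrsp* levels was not tested.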

How the results depend on the processing

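In the *Lats1* experiment depth ran with genotype. The *Lats1*-CKO libraries held 18593900 to 22087300 counts and the WT-PyMT libraries 23981200 to 25345200. The effect of depth was not tested. With 3 controls an experiment, 2 of them rich in fat cell markers in the *Lats2* experiment, each control moved the values. Scaling (DESeq2 size factors or upper-quartile factors), a robust fit and a filter on low counts changed no direction of a member, and the counts of members at an unadjusted p under 0.05 stayed within 1.5 times. No paired analysis was possible because the labels give no litter or other pairing of the tumors.

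With DESeq2 138 genes and 2 members were called in *Lats2*-CKO, and 588 genes and 2 members in *Lats1*-CKO. In *Lats1*-CKO 7 members were lower at an unadjusted p under 0.05, among 2175 genes at it in either direction. DESeq2 called 16 genes for the difference between genotypes and 44 for histology, where 1 member (*Me1*) was at an unadjusted p under 0.05, among 1214 genes. In 1 fit of all 14 libraries edgeR called 2 genes in *Lats2*-CKO and 1 in *Lats1*-CKO. At an unadjusted p under 0.05 were then 6 members in *Lats2*-CKO, among 2300 genes, and 0 in *Lats1*-CKO, among 1080 genes. The fits of each experiment alone had 1254 and 2015 genes at that threshold. Filtering on low counts gave 7 genes called in *Lats1*-CKO.

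With the adipocyte mean as a covariate, 0 members had an unadjusted p under 0.05 in *Lats2*-CKO, among 353 such genes (1254 without the covariate). *Acly*, *Thrsp* and *Scd2* turned to 0.092, 0.35 and -0.28. 0 genes were called in *Lats1*-CKO, and 2 members differed between genotypes at an unadjusted p under 0.05, among 494 such genes. For histology *Fasn*, *Acaca*, *Acly*, *Scd1*, *Elovl6*, *Scd2* and *Srebf1* turned to 0.43, 0.34, 0.34, 0.0083, 0.095, -0.035 and -0.21. With the milk mean as a covariate, *Srebf1* was at 0.0100 in *Lats2*-CKO and 0.067 in *Lats1*-CKO. In *Lats1*-CKO 0 genes were then called and 2 members had an unadjusted p under 0.05, among 1405 such genes. For the difference between genotypes 2 members had one, among 425 such genes, and *Thrsp* was at 0.70. With carcinoma as a covariate 2 members remained below that threshold in *Lats2*-CKO and 0 for the difference between genotypes, among 324 and 442 genes. Among carcinomas only, with a single control in each experiment, *Scd2* and *Me1* were at -0.064 and 0.025 in *Lats2*-CKO. Without the adenosquamous tumor 3 members differed with histology at an unadjusted p under 0.05, among 782 such genes. The cause was not tested.

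Leaving out 1 tumor at a time, edgeR called 0 to 57 genes and 0 to 3 members in *Lats2*-CKO, the most without WT-PyMT 1, and 0 to 19 genes and 0 to 1 members in *Lats1*-CKO, the most without *Lats1*-CKO 21. The count of lower members at an unadjusted p under 0.05 was 4 to 8 and 2 to 8, where 504 to 2608 and 1365 to 2338 genes were below it. For the difference between genotypes 1 to 5 genes were called and 0 to 5 members were below that threshold (5 without WT-PyMT 1). For histology 0 genes were called in every case and 0 to 3 members were below it. Of all genes 319 to 1745 were below it for the difference and 254 to 1018 for histology. *Srebf1* ranged from -0.42 to 0.73 in *Lats2*-CKO, highest without WT-PyMT 1, from -0.44 to 0.084 in *Lats1*-CKO, highest without WT-PyMT 20, and from -0.89 to 0.29 for the difference. For the difference *Acly* ranged from -0.085 to 0.48 and *Thrsp* from -0.68 to 0.60, and for histology *Fasn* from -0.82 to 0.15, *Elovl6* from -0.57 to 0.035 and *Thrsp* from -0.99 to 0.012. The 5 genes most like *Fasn* shared 1 with the 5 by Spearman correlation, 3 with those centred by group and 2 with those found without WT-PyMT 14 and 2, and those most like *Srebf1* shared 2, 2 and 1.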

Other observations

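The members differed in how much of the RNA they held together. Summed over the 10 genes, they took 1.72%, 2.43% and 0.803% of all counts in WT-PyMT 14, 2 and 1 and 0.548% to 0.778% in the *Lats2*-CKO tumors, and 0.669% to 0.948% in WT-PyMT and 0.323% to 0.728% in *Lats1*-CKO of the other experiment. *Scd1* and *Fasn* held most of the counts in WT-PyMT 14 and 2.

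Other cells of the tumors that could hold lipogenic RNA were read from markers. The 4 measured sebaceous gland markers summed to 8.00 to 14.8 CPM in WT-PyMT and 8.27 to 25.01 CPM in *Lats2*-CKO, and 10.3 to 15.1 CPM in WT-PyMT and 6.79 to 14.9 CPM in *Lats1*-CKO. The 6 brown adipocyte markers summed to 38.8 to 148 CPM in WT-PyMT and 22.3 to 32.6 CPM in *Lats2*-CKO, and 50.1 to 308 CPM in WT-PyMT and 13.7 to 50.5 CPM in *Lats1*-CKO. The 7 basal and myoepithelial markers summed to 354 to 822 CPM in WT-PyMT and 318 to 1115 CPM in *Lats2*-CKO, and 395 to 508 CPM in WT-PyMT and 339 to 1646 CPM in *Lats1*-CKO. The squamous markers summed to 2.36 to 6.15 CPM in WT-PyMT and 4.07 to 5.48 CPM in *Lats2*-CKO, and 3.30 to 34.4 CPM in WT-PyMT and 5.86 to 250.04 CPM in *Lats1*-CKO, the highest sum being that of the adenosquamous tumor. Fibroblast markers summed to 405 to 2621 CPM in WT-PyMT and 306 to 1017 CPM in *Lats2*-CKO, and 1616 to 2411 CPM in WT-PyMT and 884 to 2617 CPM in *Lats1*-CKO. Endothelial markers summed to 26.03 to 299.8 CPM in WT-PyMT and 28.4 to 96.8 CPM in *Lats2*-CKO, and 149.8 to 216 CPM in WT-PyMT and 101 to 180.1 CPM in *Lats1*-CKO. Macrophage markers summed to 297 to 394 CPM in WT-PyMT and 349 to 627 CPM in *Lats2*-CKO, and 282 to 422 CPM in WT-PyMT and 256 to 399 CPM in *Lats1*-CKO. B and plasma cell markers summed to 1.55 to 1297 CPM in WT-PyMT and 1.49 to 141 CPM in *Lats2*-CKO, and 1.55 to 385 CPM in WT-PyMT and 1.52 to 17.5 CPM in *Lats1*-CKO. T and NK cell markers summed to 12.0 to 1599.9 CPM in WT-PyMT and 9.23 to 55.7 CPM in *Lats2*-CKO, and 5.59 to 363 CPM in WT-PyMT and 5.67 to 18.1 CPM in *Lats1*-CKO. Skeletal muscle markers summed to 2.164 to 12.7 CPM in WT-PyMT and 2.19 to 2249.7 CPM in *Lats2*-CKO, and 5.38 to 241 CPM in WT-PyMT and 3.14 to 795 CPM in *Lats1*-CKO. The part of these cells in the levels of the members was not tested.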
